A study of Mus musculus with 20 samples.

Results

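The comparison set intestinal tissue of mice that express the mutant kinase BRAFV600E against tissue of Cre control mice, in 6 arrays of each group out of the 20 arrays of the series. The arrays were chosen by their labels alone, which name 6 samples BRAFV600E and 6 Cre control. Each array is a 1-colour Agilent SurePrint G3 Mouse microarray, on which Cy3-labelled RNA of 1 sample is read as the brightness of short probes. Per the study's methods, all these mice were young adults of the C57BL6/j strain and of both sexes. Cre control mice carried VillinCreER/0, a Cre recombinase that tamoxifen switches on and that the Villin promoter confines to gut epithelium. BRAFV600E mice carried in addition 1 copy of BrafV600E-LSL/+, an allele at the mouse gene's own place whose stop cassette Cre removes. Both groups received tamoxifen, so the groups differ in the Braf allele and share Cre and its inducer, and tissue was taken within days of the last dose. The treatment text of the labels describes a statin given to female mice, is the same for every sample of the series and matches neither group, so it was not used.

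BRAF is the kinase that passes a growth signal from RAS to the MEK and ERK kinases, and the V600E change keeps it active without that signal. ERK activity raises transcription factors of the ETS and AP-1 families and, as a brake, the phosphatases and adaptors of the Dusp, Spry and Spred families. The intestinal epithelium renews itself from crypt stem cells, which give absorptive enterocytes and the secretory Paneth, goblet, enteroendocrine and tuft cells. Cells make cholesterol from acetyl units through the mevalonate pathway, whose enzymes are switched on together by the factor SREBP2 when sterols are scarce.

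The genes of 2 of the groups described below, sterol synthesis and mitosis, are known to share promoter boxes, so the promoters of members with large differences are shown here, of those found in the promoter table, which did not hold Fdps. Each line gives the 250 bases before the start of transcription, 5′ to 3′ on the gene's strand, from RefSeq (GRCm38.p6). Capitals mark the NF-Y box CCAAT or its reverse complement ATTGG, and in the last pair also the CHR element TTTGAA or its reverse complement TTCAAA. The windows are, for Mvd chr8:122443423-122443672 on the minus strand, for Mvk chr5:114444019-114444268 on the plus strand, for Nsdhl chrX:72918271-72918520 on the plus strand, for Lss chr10:76531355-76531604 on the plus strand, for Cdk1 chr10:69352913-69353162 on the minus strand and for Nek2 chr1:191821223-191821472 on the plus strand.
Mvd: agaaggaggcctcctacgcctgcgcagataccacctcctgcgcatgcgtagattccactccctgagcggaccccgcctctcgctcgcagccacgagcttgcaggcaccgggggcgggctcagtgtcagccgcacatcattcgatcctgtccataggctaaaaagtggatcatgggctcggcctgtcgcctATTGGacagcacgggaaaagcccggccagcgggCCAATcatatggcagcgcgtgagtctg
Mvk: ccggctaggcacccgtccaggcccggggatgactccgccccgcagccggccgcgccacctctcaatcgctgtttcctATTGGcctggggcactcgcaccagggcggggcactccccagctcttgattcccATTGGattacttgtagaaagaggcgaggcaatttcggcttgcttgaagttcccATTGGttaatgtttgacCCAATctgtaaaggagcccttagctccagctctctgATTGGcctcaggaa
Nsdhl: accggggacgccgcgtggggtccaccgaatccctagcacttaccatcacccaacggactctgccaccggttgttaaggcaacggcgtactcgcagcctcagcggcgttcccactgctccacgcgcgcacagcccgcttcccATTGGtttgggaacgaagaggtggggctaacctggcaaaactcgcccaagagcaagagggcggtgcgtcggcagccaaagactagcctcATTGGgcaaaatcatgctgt
Lss: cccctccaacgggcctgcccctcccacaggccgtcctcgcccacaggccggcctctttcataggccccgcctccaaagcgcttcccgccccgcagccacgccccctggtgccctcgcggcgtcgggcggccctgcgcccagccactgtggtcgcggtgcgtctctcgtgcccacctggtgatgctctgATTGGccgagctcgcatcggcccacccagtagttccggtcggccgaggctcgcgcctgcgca
Cdk1: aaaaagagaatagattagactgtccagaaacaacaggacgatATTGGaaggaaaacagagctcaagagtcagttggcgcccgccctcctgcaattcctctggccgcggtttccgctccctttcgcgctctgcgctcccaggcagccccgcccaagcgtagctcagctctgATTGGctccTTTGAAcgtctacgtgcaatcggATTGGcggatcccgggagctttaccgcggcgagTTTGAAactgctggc
Nek2: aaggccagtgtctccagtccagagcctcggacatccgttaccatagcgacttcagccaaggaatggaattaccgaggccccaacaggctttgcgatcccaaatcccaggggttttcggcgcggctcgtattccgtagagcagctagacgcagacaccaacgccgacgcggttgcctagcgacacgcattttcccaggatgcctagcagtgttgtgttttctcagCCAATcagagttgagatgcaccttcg
The promoter of Mvk, a kinase of the mevalonate pathway, holds 5 such boxes, and that of Cdk1, the kinase that drives mitosis, holds 3 of them and 2 CHR elements.

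Levels are given below as log2 processed signal minus the 75th percentile of the same array, so that 0 is the 75th percentile of all spots and negative values are dimmer. A difference is the BRAFV600E mean minus the Cre control mean on that log2 scale, and a difference of 1 is a doubling. Of 19040 genes tested, 2369 passed a Benjamini-Hochberg adjusted p of 0.05 in limma, 1177 of them higher and 1192 lower in BRAFV600E tissue. That is 12.4% of the genes in either direction, 6.18% higher and 6.26% lower, and each count of a group below can be read against these shares. The median difference over all genes was -0.02, and the median absolute difference of the genes that passed was 0.80. On 7.36% of the genes, or 1402, the 6 BRAFV600E arrays did not overlap with the 6 Cre control arrays. Every p below is limma's adjusted p over all genes, two-sided, with 6 mice a group. Scaling by each array's median instead moved the median of all genes by 0.12 and gave 73.6% of calls as higher, in place of 49.7%, so small differences of either sign depend on the scaling.

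The arrays lie on 2 slides. All Cre control arrays and BRAFV600E 1 and 2 lie on slide 1, and BRAFV600E 3 to 6 lie on slide 2. With the slide as a block, 1535 genes passed, 464 higher and 1071 lower, and 1014 of the 2369 remained. That fit rests on BRAFV600E 1 and 2 alone, since slide 2 holds no Cre control array. Leaving out a single array gave between 1442 genes, without Cre control 3, and 2858 genes, without Cre control 4, and 1526 without Cre control 2. On 3 Cre control arrays, 2, 3 and 5, the slope of the spike-in controls lay below the range of the scanner software, and on slide 2 it was 0. Against the other 3 Cre control arrays alone, 426 genes passed. BRAFV600E 2 lay highest on the first principal component, which held 33.2% of the variance, and it was the outlying array most often among the genes named here. Between 61.0% and 76.8% of spots were well above background on the 12 arrays and none was saturated. Signal of the Y-linked genes was high on 3 Cre control and 4 BRAFV600E arrays, although the methods give equal numbers of each sex. In a model with that signal as a covariate 1795 genes passed.

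The tissue expressed the defining genes of gut epithelium on every array. The mean level of 10 gut epithelium genes lay between 5.49 and 5.92 on BRAFV600E arrays and between 5.12 and 5.47 on Cre control arrays, with 3 genes higher, none lower and a median difference of 0.43. The 3 were Krt19, Krt18 and the adhesion molecule Cdh1, with differences of 0.94, 0.87 and 0.61. The genes of other cell types are described at the end. In whole tissue, fewer cells of a type and less RNA per cell cannot be told apart. The p-values set each difference against the spread between arrays, 1 mouse for each, and the differences are means over the tissue. The main fit has no slide term, so any offset between the slides is part of both the spread and the difference.

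Of the kinase cascade itself 17.6% of the genes passed, against 12.4% of all genes. Of 17 genes of the RAS, RAF, MEK and ERK kinases and their scaffolds, 3 were higher and none lower, with a median difference of 0.11. Braf itself had levels of -0.82 to 0.11 with a median of -0.43 on BRAFV600E arrays and of -1.22 to -0.43 with a median of -0.78 on Cre control arrays. The groups overlapped, and the difference of 0.42 (SE 0.20, adjusted p = 0.172) did not pass. The probe does not distinguish the mutant from the normal transcript, 2 of the 4 probes of Braf went the other way, and a knock-in allele need not alter the amount of RNA, so Braf does not check the labels. Map2k1, which encodes MEK1, rose by 1.05 (SE 0.24, adjusted p = 0.0159), from a median level of 0.73 to one of 1.90. The other 2 were Nras at 0.56, of whose probes 1 of 2 went the other way, and Hras at 0.43. None of the 3 calls remained with the slide as a block.

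The feedback inhibitors of ERK formed one of the groups with the largest share of calls. Of 12 Dusp, Spry and Spred genes, 8 were higher and none lower, with a median difference of 0.72. Spry4, an adaptor that dampens receptor signals, ranged from -2.97 to -1.15 with a median of -1.80 on BRAFV600E arrays and from -4.60 to -3.51 with a median of -4.11 on Cre control arrays. All 6 BRAFV600E arrays lay above all 6 Cre control arrays, and the difference was 2.19 (SE 0.28, adjusted p = 6.17e-04). Dusp4, a phosphatase of ERK in the nucleus, had medians of -0.09 and -1.90 and a difference of 1.65 (SE 0.19, adjusted p = 3.06e-04), again with no overlap. Dusp6, the phosphatase of ERK in the cytoplasm, was already bright in the control tissue, with a median level of 3.77 that reached 4.41 in BRAFV600E tissue, and rose by 0.72 (SE 0.13, adjusted p = 0.00541). Spry1 rose by 1.09, Spry2 by 0.86, Spred1 by 0.73, Spred2 by 0.70 and Dusp5 by 0.64, where 1 of 2 probes of Spry2 went the other way and 1 array had no value for Spry1. With the slide as a block 5 of the 8 remained, and 6 of the 8 passed in every fit that left out a single array.

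Among transcription factors downstream of ERK the changes were selective. Of 19 ETS factors 2 were higher and 3 lower. Etv4, a member of the PEA3 group, had the largest difference of them: its levels were 2.11 to 2.57 with a median of 2.25 in BRAFV600E tissue and -0.83 to 0.82 with a median of -0.36 in control tissue, a difference of 2.5 (SE 0.27, adjusted p = 1.72e-04). Its relative Etv5 rose by 1.00 (SE 0.11, adjusted p = 2.96e-04), with no overlap of the arrays for either gene. The third of that group, Etv1, fell by 0.73, as did Elk1 by 0.69, with 1 of 2 probes going the other way, and Fli1 by 0.52, and none of these 3 remained with the slide as a block. The median of the ETS factors was -0.11 and turned positive with median scaling.

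Of 15 AP-1 and immediate early genes 3 were higher and none lower, and 13 of 15 differences were positive with a median of 0.53. Egr1, a zinc finger factor induced within minutes by ERK, ranged from -0.32 to 1.09 in BRAFV600E tissue and from -1.77 to -0.41 in control tissue, and its difference was 1.26 (SE 0.27, adjusted p = 0.0118). Maff, a small Maf factor, rose by 0.96 and Myc by 0.94, with 1 of 2 probes of Myc going the other way. Of 16 EGF ligands, ERBB receptors and their regulators 1 was higher and 1 lower, with a median of 0.07. Errfi1, an inhibitor of the EGF receptor, rose by 1.72 (SE 0.18, adjusted p = 1.72e-04), from a control range of 1.5 to 2.27 to one of 3.02 to 3.88. Nrg4, a ligand of ERBB4, fell by 1.52 (SE 0.32, adjusted p = 0.0108), with overlap between the arrays of the groups.

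**Figure D1:**
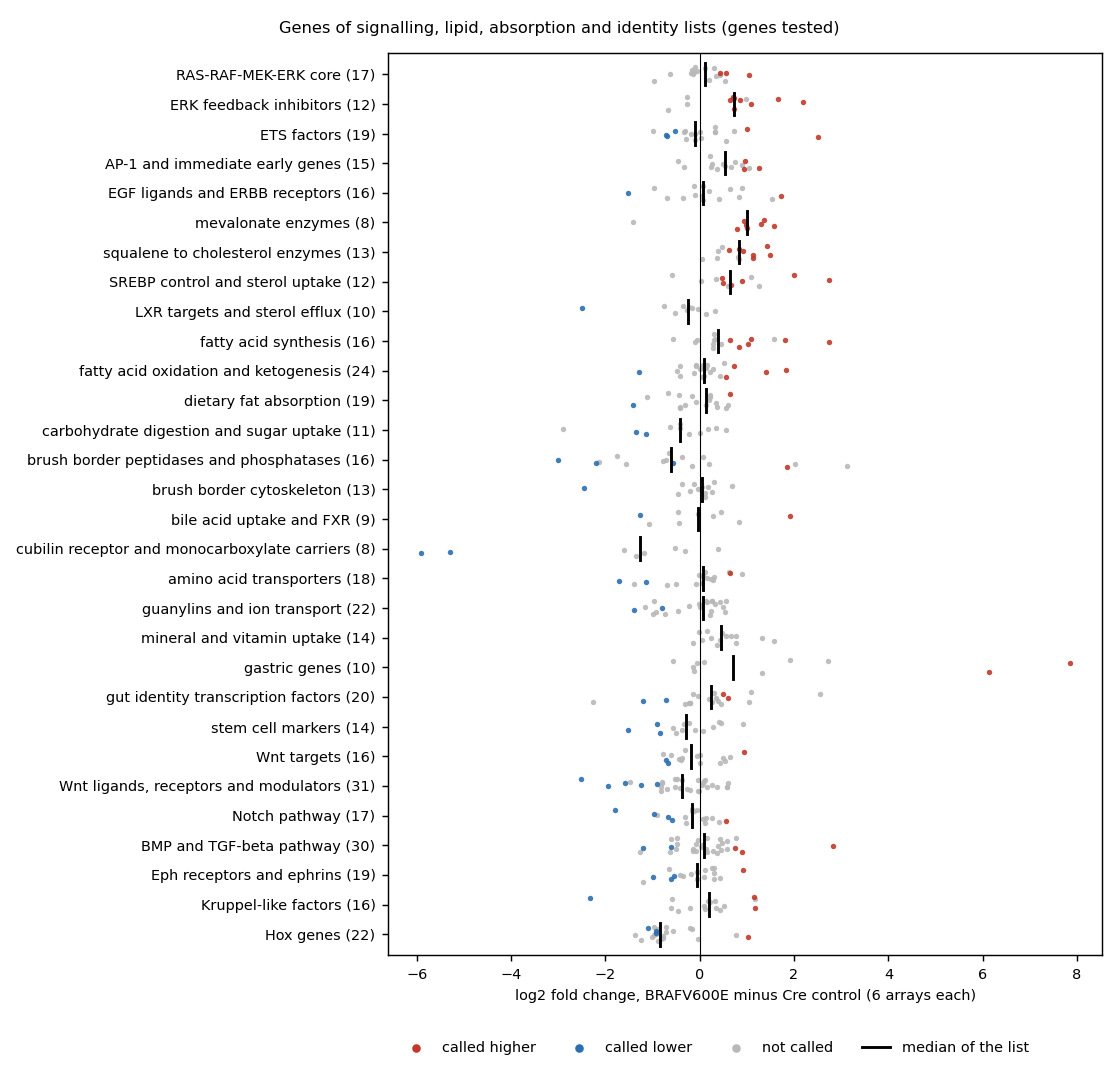
Differences on the log2 scale (x axis, BRAFV600E minus Cre control, 6 arrays each) of each tested gene in the lists of signalling, lipid, absorption and identity genes (rows, number of genes in brackets), with red points for genes that passed higher, blue for lower, grey for neither and a black bar at the median of the list. The 3 lists of sterol synthesis, uptake and control and the feedback inhibitors have medians of 0.64 to 0.99, while the cubilin and monocarboxylate list has its median at -1.27.

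Most genes of sterol synthesis rose together. Of 8 tested mevalonate enzymes 7 were higher and none lower, with a median difference of 0.99, and on all 6 BRAFV600E arrays their mean level (2.73 to 3.70) was above that of every Cre control array (2.03 to 2.72). Fdps, which makes farnesyl diphosphate, ranged from 4.64 to 5.42 with a median of 5.14 in BRAFV600E tissue and from 3.34 to 3.75 with a median of 3.51 in control tissue. It rose by 1.57 (SE 0.14, adjusted p = 5.08e-05). Mvd and Mvk, whose promoters are shown above, rose by 1.37 (SE 0.17, adjusted p = 4.83e-04) and by 1.29 (SE 0.21, adjusted p = 0.00264). Hmgcs1, an early synthase of the pathway, rose by 1.01, Idi1 by 0.94 and Pmvk by 0.78. All 7 passed in every fit that left out an array and 6 remained with the slide as a block. The remaining enzyme went the other way, at -1.41. It did not pass in the main fit but passed as lower with the slide as a block.

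Of the 13 enzymes from squalene to cholesterol 7 were higher and none lower, and all 13 differences were positive, with a median of 0.84. Nsdhl, a sterol dehydrogenase, ranged from 0.24 to 1.06 against -1.48 to -0.29 and rose by 1.49 (SE 0.24, adjusted p = 0.0024). Lss, which closes the sterol rings, rose by 1.42 (SE 0.20, adjusted p = 0.00128), with a difference of 1.42 on either slide. Cyp51 and Fdft1 rose by 1.13 each, Sqle by 0.91, Msmo1 by 0.84 and Tm7sf2 by 0.63. Their mean level in BRAFV600E tissue, 2.44 to 3.00, was above the control range of 1.88 to 2.17 on every array. With the slide as a block 3 of the 7 remained, although the median of the list was 0.78 on slide 1 and 0.85 on slide 2.

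Of 12 genes of SREBP control and sterol uptake 6 were higher and none lower, with a median of 0.64. Insig1, which holds SREBP back in the endoplasmic reticulum, ranged from -1.97 to 0.27 with a median of -0.79 in BRAFV600E tissue and from -3.00 to -2.24 with a median of -2.92 in control tissue. All BRAFV600E arrays lay above all Cre control arrays, and it rose by 2.0 (SE 0.31, adjusted p = 0.0019). Srebf2, which encodes SREBP2, rose by 0.67, Npc2 by 0.49 and Scap by 0.47. Of the 6 calls 2 remained with the slide as a block, where 1 other gene passed as lower, and 4 of the 6 passed in every fit that left out an array. Genes of the opposite arm were fewer: of 10 LXR targets and genes of sterol efflux and esterification none was higher and 1 lower. That gene, Abca1, which exports cholesterol, ranged from -2.61 to -0.55 in BRAFV600E tissue and from -0.26 to 1.52 in control tissue and fell by 2.49 (SE 0.40, adjusted p = 0.00265).

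Fatty acid synthesis showed the same direction in a smaller share. Of 16 genes 6 were higher and none lower, with a median of 0.38. Scd2, a desaturase, ranged from 3.51 to 4.77 against 0.35 to 2.16 and rose by 2.74 (SE 0.34, adjusted p = 5.08e-04). Me1, a source of NADPH, rose by 1.81, Aacs by 1.08, the desaturases Fads2 and Fads1 by 1.02 and 0.83, and Acss2 by 0.65, with 1 of 4 probes of Acss2 going the other way. Of 24 genes of fatty acid oxidation and ketogenesis 4 were higher and 1 lower, with a median of 0.09. The higher genes were Acot1 at 1.82, Cpt1a, the gate of mitochondrial fat entry, at 1.40, Slc25a20 at 0.72 and Acadl at 0.56.

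Among genes of absorption, most lists had few calls. Of 19 genes of dietary fat absorption 1 was higher and 1 lower, with a median of 0.13. The apolipoprotein Apoc3 fell by 1.41 (SE 0.35, adjusted p = 0.0233) and the lipid droplet coat Plin2 rose by 0.63. Of 11 genes of carbohydrate digestion and sugar uptake none was higher and 2 were lower, with a median of -0.41: Fbp1, of gluconeogenesis, fell by 1.36 and Mgam, a maltase, by 1.14. Of 16 brush border peptidases and phosphatases 1 was higher and 3 lower, with a median of -0.62. Mep1a, a subunit of meprin, ranged from -0.59 to 0.99 in BRAFV600E tissue and from 2.81 to 3.65 in control tissue and fell by 3.00 (SE 0.29, adjusted p = 6.79e-05). Xpnpep2 fell by 2.21 and Mme by 0.57, while Alpi, intestinal alkaline phosphatase, ranged from 5.38 to 7.23 against 3.77 to 4.64 and rose by 1.84 (SE 0.29, adjusted p = 0.00225).

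The largest single falls among listed genes were in a receptor and a carrier of the brush border. Of 8 genes of the cubilin receptor and the monocarboxylate carriers 2 passed, both lower, and the median was -1.27. Cubn, the receptor for the vitamin B12 complex, ranged from 4.10 to 4.48 on Cre control arrays and from -4.95 to 0.63 with a median of -0.32 on BRAFV600E arrays. It fell by 5.31 (SE 0.75, adjusted p = 0.00119), and its signal was well above background on 5 of the 6 BRAFV600E arrays. Slc5a12, a sodium-coupled lactate carrier, fell by 5.92 (SE 1.21, adjusted p = 0.0095), from a control median of 3.14 to one of -2.91, with signal well above background on 4 of the 6. Of 13 genes of the brush border cytoskeleton only the scaffold Pdzk1 passed, which fell by 2.46 (SE 0.61, adjusted p = 0.023), and the median was 0.04. The medians of these lists differed between the BRAFV600E arrays of the slides: -2.33 on slide 1 and -0.71 on slide 2 for cubilin and the carriers, and -1.54 and -0.25 for the peptidases. With the slide as a block, 3 peptidases and phosphatases passed as higher and 10 as lower, and 4 genes of the cubilin list passed as lower. Levels of the gut epithelium genes, by contrast, were no lower in BRAFV600E tissue, as given above.

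The remaining transport lists had between 0% and 22.2% of their genes called. Of 9 genes of bile acid uptake and FXR 1 was higher and 1 lower: Nr0b2, the repressor that FXR induces, rose by 1.92 (SE 0.32, adjusted p = 0.0031) and Slc51a, a bile acid exporter, fell by 1.27, with 1 array without a value. Of 18 amino acid transporters 1 was higher and 2 lower, Slc3a1 at 0.64, Slc36a1 at -1.71 and Slc1a1 at -1.14. Of 22 genes of guanylin signalling and ion transport 2 were lower and none higher, the water channel Aqp1 at -1.38 and the potassium channel Kcnq1 at -0.80, with 1 of 5 probes of Kcnq1 going the other way. The medians of these 3 lists, -0.03, 0.07 and 0.07, changed sign with some alternatives. Of 14 genes of mineral and vitamin uptake none passed in limma, 3 at an unadjusted p under 0.05, with a median of 0.45 and the largest difference at Cybrd1, a ferric reductase (1.56, adjusted p = 0.441), where BRAFV600E 2 alone was high.

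Genes known from the stomach were among the largest rises. Of 10 gastric genes 2 were higher and none lower. Anxa10, an annexin of gastric mucosa, ranged from -1.64 to 5.87 with a median of 1.2 on BRAFV600E arrays. None of the 6 Cre control arrays read it well above background, and against that floor it was at least 113-fold higher (adjusted p = 4.84e-04). Aqp5, a water channel of stomach glands, ranged from -0.98 to 0.83 against -7.17 to -4.09 with a fitted difference of 6.14 (SE 0.48, adjusted p = 1.95e-05). Its signal was well above background on all 6 BRAFV600E arrays but on only 1 Cre control array, so the control side of that difference is mostly at background and its size is uncertain. The other 8 tested gastric genes did not pass, and the list's median of 0.69 was 2.02 for the BRAFV600E arrays of slide 1 and 0.09 for those of slide 2. Of 20 transcription factors of gut identity 2 were higher and 2 lower, with a median of 0.23: Hnf4a at 0.60 and Gata4 at 0.49, and among the lower genes Ppargc1a at -0.73.

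**Figure D2:**
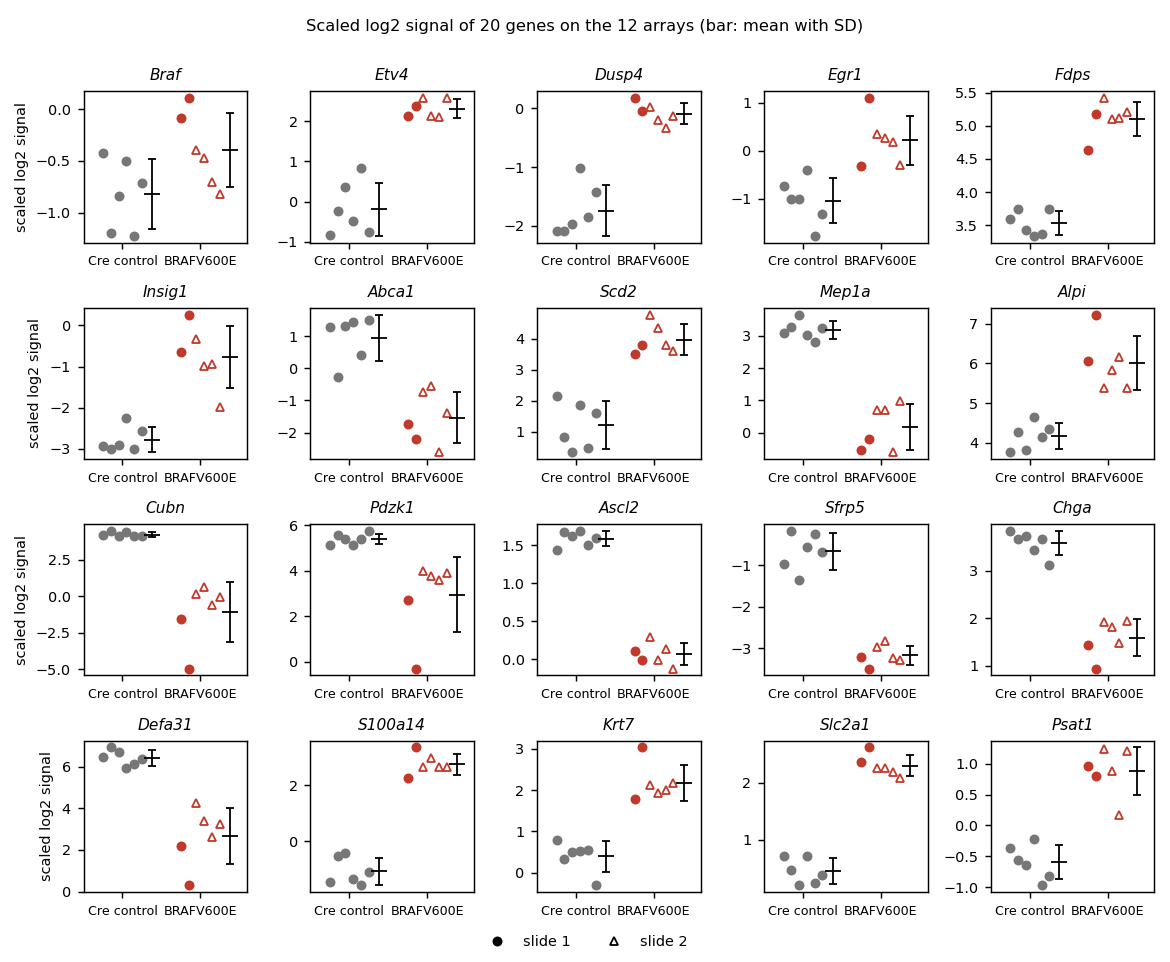
Level (y axis, scaled log2 signal) of 20 genes on each of the 12 arrays, with Cre control in grey, BRAFV600E in red, circles for slide 1, triangles for slide 2, and a bar for the mean of each group with its SD. For Etv4, Fdps, Mep1a and S100a14 the groups do not overlap and the arrays of both slides lie together, while for Cubn and Pdzk1 the BRAFV600E arrays of slide 1 lie lowest.

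Calls among stem cell and Wnt genes were mostly lower. Of 14 stem cell markers 3 were lower and none higher, with a median of -0.29. Ascl2, the transcription factor of crypt stem cells, had the tightest separation: 1.44 to 1.69 on Cre control arrays and -0.12 to 0.29 on BRAFV600E arrays, a difference of -1.52 (SE 0.11, adjusted p = 1.57e-05). Its other probe went the other way. Tnfrsf19 fell by 0.90 and Lgr5, a receptor that marks these cells, by 0.84 (SE 0.24, adjusted p = 0.0419), with overlapping arrays and no call for Lgr5 with the slide as a block. Of 16 Wnt target genes 1 was higher and 2 lower, Myc given above, Axin2 at -0.72 and Sox4 at -0.68, and none of the 3 remained with the slide as a block or passed in every fit that left out an array.

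Of 31 Wnt ligands, receptors and modulators 5 were lower and none higher, with a median of -0.38. Sfrp5, a secreted Wnt antagonist, ranged from -3.49 to -2.83 in BRAFV600E tissue and from -1.36 to -0.17 in control tissue and fell by 2.51 (SE 0.20, adjusted p = 2.21e-05). Wnt3, the ligand that Paneth cells give to stem cells, fell by 1.95 (SE 0.28, adjusted p = 0.00125) and was well above background on 4 of 6 BRAFV600E arrays and all Cre control arrays. Fzd9 fell by 1.59, Wnt4 by 1.24 and Rspo3 by 0.90. All 5 genes separated the arrays of the groups without overlap and passed in every fit that left out an array. The Paneth cell genes, given below, fell in the same tissue, and their part in the difference of Wnt3 was not tested.

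Other developmental pathways held single large changes. Of 17 Notch genes 1 was higher and 4 lower: Dll1 at 0.56, Hes5 at -1.80, Dll3 at -0.98, Dll4 at -0.67 and Mfng at -0.60, with a median of -0.17. Of 30 BMP and TGF-beta genes 3 were higher and 2 lower, with a median of 0.09. Bmp8b, a ligand, rose by 2.82 (SE 0.44, adjusted p = 0.00207) from a control range of -6.82 to -4.25, in which 3 of 6 arrays were well above background, to one of -3.07 to -1.43. Inhba rose by 0.89 and the receptor Bmpr1a by 0.74, while the decoy receptor Bambi fell by 1.2 and the protease Bmp1 by 0.62. Of 19 Eph receptors and ephrins 1 was higher and 3 lower, with Efna1 at 0.91, Efna5 at -1.0 (1 of 3 probes the other way), Efna4 at -0.61 and Ephb4 at -0.55, and the median of -0.06 turned positive with median scaling. Of 16 Kruppel-like factors Klf10 rose by 1.18 and Klf11 by 1.14, and Klf15 fell by 2.33 (SE 0.39, adjusted p = 0.00335), with a median of 0.20. Of 22 Hox genes 1 was higher, Hoxa3 at 1.03, and 3 were lower, Hoxa7 at -1.09 and Hoxb5 and Hoxd4 at -0.93 each. The Hox median was -0.85, and their mean level lay between -3.77 and -2.73 on BRAFV600E arrays, below the control range of -2.57 to -2.19. These genes are dim, and 17 of the 39 Hox genes were too dim to be tested. The median control level of the Hox list was -2.13. Among groups of 10 or more like-named tested genes with a lower one, Slco (0.09) and Cyp4 (0.11) had positive median differences. The others had negative ones, such as -0.59 (Wnt), -0.56 (Serpina), -0.55 (Scn), -0.44 (Defb) and -0.15 (Vmn). The part of low signal in the Hox median was not tested.

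Among the markers of secretory cell types the Paneth cell genes had the lowest median. Of 12 tested genes 10 were lower and none higher, with a median of -2.17, and every Cre control array (mean level 5.96 to 7.06) was above every BRAFV600E array (2.93 to 5.33). Lyz1, lysozyme of Paneth cells, ranged from 5.11 to 7.16 against 7.60 to 8.36 and fell by 2.01 (SE 0.32, adjusted p = 0.0024). Mptx1, a pentraxin, fell by 3.61 (SE 0.60, adjusted p = 0.00317), and Mmp7, the metalloproteinase that activates defensins, fell by 2.10. The defensins form the Defa symbol family, of which all 16 tested members were lower, with Defa31 lowest at -3.73 (SE 0.52, adjusted p = 0.00105) and a range of 0.32 to 4.27 against 5.91 to 6.92. Defensin genes are near-identical copies and their probes can share signal, as can those of Lyz1 and Lyz2, so the members are not separate measurements. The median of the Paneth list was -3.23 for BRAFV600E 1 and 2 and -1.62 for BRAFV600E 3 to 6, lower than control on both slides.

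The Reg lectins, antimicrobial proteins that Paneth and other epithelial cells secrete, fell with them. Of 7 genes 6 were lower and none higher, with a median of -3.05. Reg3a was lowest at -5.27 (SE 1.35, adjusted p = 0.0257), from a control range of 4.36 to 5.41 to one of -7.19 to 2.70, in which BRAFV600E 2 was far below the rest. Reg1 fell by 3.72 (SE 0.55, adjusted p = 0.00153), and the differences were -3.43 for Reg2, -3.05 for Reg3b, -2.52 for Reg3g and -1.19 for Reg3d. All 6 remained with the slide as a block, and 3 of the 6 passed in every fit that left out an array.

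Goblet cell genes were divided. Of 15 genes 2 were higher and 3 lower, with a median of -0.29. Muc4, a membrane mucin, rose by 1.25 and Agr2, a chaperone of mucins, by 0.54, while the secreted mucin Muc2 fell by 0.82 (SE 0.19, adjusted p = 0.018), Zg16 by 0.93 and Tff3 by 0.80. None of these 5 passed under all 4 other scalings. Of 20 enteroendocrine genes 2 were higher and 6 lower, with a median of -0.13. Chga, a granule protein of these cells, ranged from 0.94 to 1.93 against 3.12 to 3.83 and fell by 1.99 (SE 0.19, adjusted p = 6.75e-05). The hormone genes went in both directions: Gcg fell by 1.84, Gip by 1.18 and Sst by 0.95, while Pyy rose by 1.99 (SE 0.46, adjusted p = 0.0164) and Tac1 by 0.74. The granule genes Scg5 and Scg3 fell by 1.00 and 0.66, without overlap of the arrays for any of the 8.

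Of 18 transcription factors of secretory lineages 6 were lower and none higher, with a median of -0.47. Lmx1a fell by 1.30 (SE 0.23, adjusted p = 0.00412), Bhlha15 by 1.23, Pax4 by 1.22, Nkx2-2 by 1.03, Isl1 by 0.94 and Sox4 as given above. Of 15 tuft cell genes 5 were lower and none higher, with a median of -0.62, and their mean level lay below the control range on all 6 BRAFV600E arrays. Rgs13 fell by 1.25 (SE 0.21, adjusted p = 0.00304), Gfi1b by 0.80, the cation channel Trpm5 by 0.62, Hpgds by 0.60 and Ptgs1 by 0.56. With the slide as a block none of the 5 tuft calls and 1 of the 6 factor calls, Bhlha15, remained.

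Among genes of the cell surface, the cytoskeleton and repair, the annexins, keratins and S100 proteins held the larger shares of calls. Of 22 genes of fetal-like epithelium and of YAP targets 4 were higher and none lower, and the median of -0.03 changed sign with some alternatives. Among the 4 were S100a6 at 2.68 (SE 0.21, adjusted p = 2.04e-05), Anxa3 at 1.81 and Ccn2, a YAP target, at 1.79 (SE 0.25, adjusted p = 0.00103), all without overlap. The other 18 genes of that list did not pass. Of 11 annexins other than Anxa10, proteins that bind membranes with calcium, 6 were higher and none lower, with a median of 0.72: beside Anxa3 these were Anxa9 at 1.55, Anxa13 at 1.38, Anxa5 at 0.99, Anxa4 at 0.72 and Anxa2 at 0.55. Of 14 epithelial keratins 5 were higher and none lower, Krt7 at 1.77 (SE 0.23, adjusted p = 6.69e-04), Krt23 at 1.59, Krt19 and Krt18 as above and Krt17 at 0.89, with a median of 0.09.

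Of 17 S100 genes 6 were higher and 1 lower, with a median of 0.32. S100a14, a calcium-binding protein of epithelia, ranged from 2.27 to 3.36 with a median of 2.64 in BRAFV600E tissue and from -1.56 to -0.43 with a median of -1.24 in control tissue, a rise of 3.83 (SE 0.24, adjusted p = 5.78e-06). S100a5 rose by 2.57, S100a11 by 1.68, S100a16 by 1.40 and S100a13 by 0.76, beside S100a6. The S100 gene that fell, S100b at -0.81, is a marker of glia. Of 26 tight junction genes 3 were higher and 1 lower, with a median of 0.07: Cldn2, a cation pore, rose by 2.17 (SE 0.42, adjusted p = 0.00774), Cldn4 by 1.54 and Tjp1 by 0.57, and Cldn24 fell by 2.14.

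Of 31 integrins and laminins 6 were higher and 2 lower, with a median of 0.13. The higher genes included Lamb3 (1.34), a chain of the laminin of epithelial basement membranes, and the integrins Itga2 (1.27), Itga5 (0.97), Itga3 (0.60) and Itgb4 (0.48). The lower genes were Itga1 at -2.36 (SE 0.63, adjusted p = 0.0312), of whose probes 1 of 5 went the other way, and Lamc3 at -1.24. Of 25 plasminogen activators and metalloproteinases Plaur, the urokinase receptor, rose by 0.89 and Mmp7 fell as given above, with a median of -0.19.

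**Figure D3:**
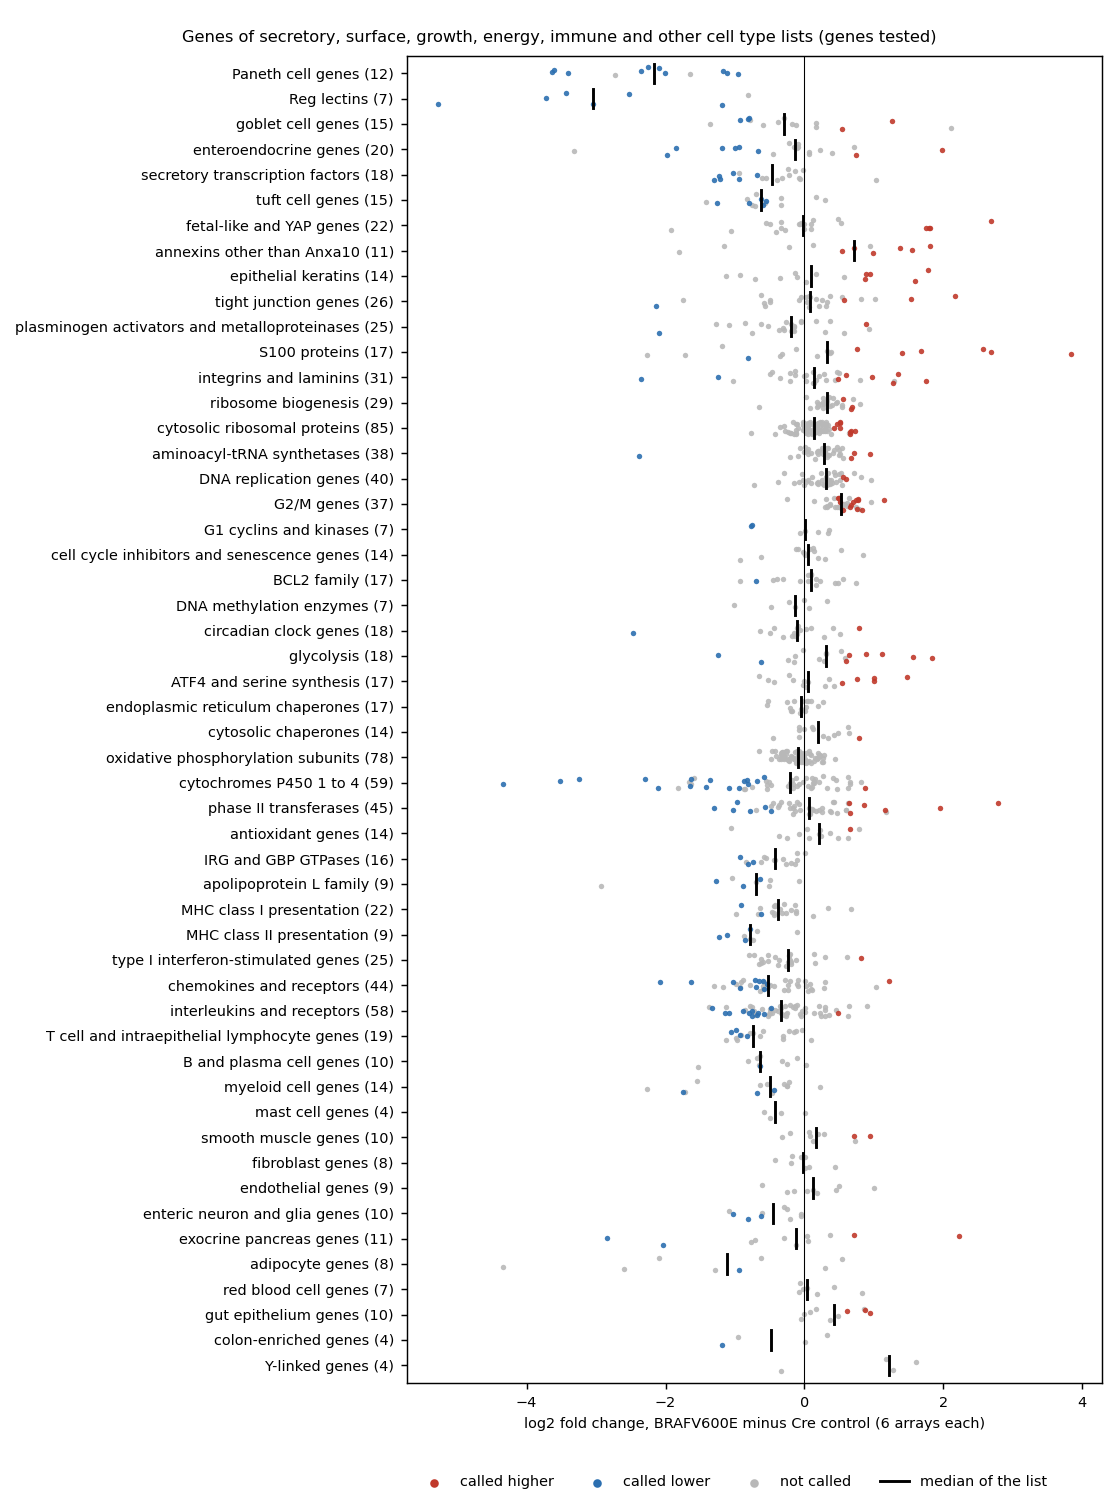
Differences on the log2 scale (x axis, BRAFV600E minus Cre control, 6 arrays each) of each tested gene in the lists of secretory, surface, growth, energy, immune and other cell type genes (rows, number of genes in brackets), with red points for genes that passed higher, blue for lower, grey for neither and a black bar at the median of the list. Paneth genes and Reg lectins have medians of -2.17 and -3.05, and the points of G2/M genes lie to the right of 0 in 36 of 37 cases.

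Among the growth and division lists the G2/M genes held the largest share of calls. Of 37 G2/M genes 13 were higher and none lower, 36 differences were positive and the median was 0.52. Cdk1 ranged from -0.83 to -0.04 against -2.05 to -0.38 and rose by 1.15 (SE 0.28, adjusted p = 0.0209). Nek2, a kinase of the centrosome, rose by 0.83 (SE 0.21, adjusted p = 0.0241), and Cenpa, a histone of centromeres, and Tpx2, of the spindle, by 0.76 each. With the slide as a block 2 of the 13 remained, and 4 of the 13 passed in every fit that left out an array. Of 40 DNA replication genes 2 were higher and none lower, Rrm2 at 0.60 and Dut at 0.55, with 32 positive differences and a median of 0.31, and 1 of 2 probes of Dut went the other way. Of 29 ribosome biogenesis genes Ddx21 and Ncl rose by 0.68 each and Nop10 by 0.55, and 28 differences were positive with a median of 0.32.

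Of 85 cytosolic ribosomal proteins 9 were higher and none lower, with a median of 0.14, which was -0.14 on slide 1 and 0.26 on slide 2. The highest, Rpl7, rose by 0.73, with 1 of 3 probes going the other way, and 1 of the 9, Rps6, passed under all 4 other scalings. Of 38 aminoacyl-tRNA synthetases 3 were higher and 1 lower, with a median of 0.29: Tarsl2 at 0.95, Iars2 at 0.71, Farsb at 0.67 and Farsa at -2.38. The probes of one gene disagreed in Farsa (3 of 4 the other way), Iars2 (3 of 5) and Tarsl2 (1 of 2), so these 3 values are uncertain. Of 7 G1 cyclins and kinases 2 were lower, the D-type cyclin Ccnd2 at -0.76 and its kinase Cdk6 at -0.75, and the median of 0.01 changed sign with some alternatives.

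Few genes of arrest, death or methylation passed. Of 14 cell cycle inhibitors and senescence genes none passed in limma, 2 at an unadjusted p under 0.05, with a median of 0.05 and the largest difference at Cxcl1, a chemokine of the secretory phenotype (-0.93, adjusted p = 0.345). Of 17 BCL2 family genes 1 was lower, the death factor Bmf at -0.70, with a median of 0.09. Of 7 DNA methylation enzymes none passed in limma, 1 at an unadjusted p under 0.05, with a median of -0.14 and the largest difference at Dnmt3b (-1.02, adjusted p = 0.228). Of 18 circadian clock genes Bhlhe40 rose by 0.78 and Hlf, a clock output factor, fell by 2.48 (SE 0.61, adjusted p = 0.0226), with a median of -0.10.

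Of 18 glycolysis genes 6 were higher and 2 lower, with a median of 0.31, which was 0.06 on slide 1 and 0.50 on slide 2. Of the 8 calls 2 remained with the slide as a block. Slc2a1, the glucose transporter GLUT1, ranged from 2.08 to 2.61 with a median of 2.26 in BRAFV600E tissue and from 0.21 to 0.72 with a median of 0.43 in control tissue, a rise of 1.83 (SE 0.14, adjusted p = 1.57e-05). Pfkl, a subunit of phosphofructokinase, rose by 1.56, the lactate exporter Slc16a3 by 1.12, Aldoa by 0.88, Pgam1 by 0.65 and Pgk1 by 0.60, with 1 of 2 probes of Pgk1 going the other way, while Pfkfb3 fell by 1.25 and Ldhb by 0.63. Of 17 genes of the ATF4 response and serine synthesis 5 were higher and none lower, with a median of 0.05. These included the 3 enzymes of serine synthesis, Psat1 at 1.47 (SE 0.19, adjusted p = 7.48e-04), Phgdh at 1.00 and Psph at 0.54, with Shmt2, which takes serine into the folate cycle, at 1.00 and Ddit4 at 0.76. By contrast none of 78 oxidative phosphorylation subunits passed in limma, 5 at an unadjusted p under 0.05, with a median of -0.09 that turned positive with median scaling and the largest difference at Cox7a1 (-0.66, adjusted p = 0.268).

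Few stress genes passed. Of 17 endoplasmic reticulum chaperones none passed in limma, 0 at an unadjusted p under 0.05, with a median of -0.05 and the largest difference at Hspa5 (-0.53, adjusted p = 0.173). Of 14 cytosolic and mitochondrial chaperones 1 was higher, Hspd1 at 0.79, with a median of 0.19. Of 14 antioxidant genes 1 was higher, Gpx1 at 0.66, with a median of 0.21.

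Among detoxification genes nearly all calls of the first phase were lower, and those of the second went both ways. Of 59 tested cytochromes P450 from families 1 to 4, 1 was higher and 16 lower, with a median of -0.21. Cyp2c55 ranged from -2.90 to -1.62 with a median of -2.35 in BRAFV600E tissue and from 1.35 to 3.23 with a median of 1.61 in control tissue, a difference of -4.34 (SE 0.35, adjusted p = 2.21e-05). Cyp2b10, the classic target of the xenobiotic receptor CAR, fell by 3.53 (SE 0.56, adjusted p = 0.00256) and its relative Cyp2b9 by 3.24, while Cyp2s1 rose by 0.87. Cyp4f15 fell by 2.3 and Cyp3a16 by 2.11. Genes of one P450 subfamily are near-identical copies whose probes can share signal. Of the 17 calls 13 remained with the slide as a block. Of 45 phase II transferases 6 were higher and 6 lower, with a median of 0.07. Sult6b2 rose by 2.79 (SE 0.70, adjusted p = 0.0238) and the glutathione transferase Gsta4 by 1.94 (SE 0.39, adjusted p = 0.0087), while Gstm3 fell by 1.31 and Gstm1 by 1.02.

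Calls among immune genes were mostly lower. Of 9 MHC class II presentation genes 4 were lower and none higher, with a median of -0.78, and their mean level on every BRAFV600E array, 1.18 to 1.79, was below the control range of 1.89 to 3.04. H2-Ab1 fell by 1.12 (SE 0.26, adjusted p = 0.0178), H2-DMb1 by 1.23, H2-DMa by 0.85 and H2-Eb1 by 0.78. Of 22 MHC class I presentation genes 2 were lower, Tap2 at -0.91 and H2-Q1 at -0.63, with a median of -0.38. For class I the BRAFV600E arrays of the slides differed, with a median of -0.87 for those of slide 1 and -0.15 for those of slide 2. With the slide as a block, a fit that rests on BRAFV600E 1 and 2, 14 genes passed as lower.

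Of 16 IRG and GBP GTPases, which interferon gamma induces, 3 were lower, Gbp4 at -0.93, Gbp2 at -0.81 and Gbp3 at -0.74, with a median of -0.43. Of 9 apolipoprotein L genes 3 were lower, Apol11b at -1.28, Apol7b at -0.89 and Apol7c at -0.63, with a median of -0.70. Of 25 type I interferon-stimulated genes 1 was higher, Mx1 at 0.81, and none lower, with a median of -0.23. Of 44 chemokines and receptors 1 was higher and 10 lower, with a median of -0.52: Ccl6 fell by 2.08 (SE 0.43, adjusted p = 0.0103), while the differences were -1.63 for Ccl9, -1.03 for Ccl3 and -0.93 for Ccl4, and Cxcl16 rose by 1.21 (SE 0.18, adjusted p = 0.00148). Of 58 interleukins and receptors 1 was higher, Il20rb at 0.49, and 11 were lower, with Il7 at -1.33, Il1b at -1.14, Il1r2 at -1.09 and Il6ra at -0.89 lowest and a median of -0.34. Of the Il6ra probes 1 of 2 went the other way, and Il7 was well above background on 2 of 6 BRAFV600E arrays.

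Among markers of immune cells no call was higher, and most markers did not pass. Of 19 genes of T cells and intraepithelial lymphocytes 4 were lower and none higher, with a median of -0.74 and mean levels of -0.65 to 0.37 against 0.05 to 0.79. The 4 were Cd7 at -1.05, Cd3g at -0.98, Lck at -0.93 and Cd8a at -0.83, and each remained with the slide as a block, where 10 of the 19 passed as lower, but none of the 4 passed in every fit that left out an array or under all 4 other scalings. Of 10 B and plasma cell genes 1 was lower, Pax5 at -0.64, with a median of -0.64 and mean levels of -1.54 to -0.42 against -0.84 to -0.27. Of 14 myeloid genes 3 were lower, Lyz2 at -1.75, Csf1r at -0.69 and Itgax at -0.45 (1 of 2 probes the other way), with a median of -0.50 and mean levels of 0.29 to 1.58 against 0.69 to 2.26. The probes of Lyz2 and of the Paneth gene Lyz1 can share signal, so the difference of Lyz2 need not come from myeloid cells. Of 4 mast cell genes none passed in limma, 2 at an unadjusted p under 0.05, with a median of -0.42 and the largest difference at Tpsb2 (-0.58, adjusted p = 0.0999). The part of these cells in the differences of chemokine, interleukin and MHC genes was not tested.

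Other cell types were measured as a background of the tissue piece. Of 10 smooth muscle genes 2 were higher and none lower, Des at 0.94, of whose probes 1 of 2 went the other way, and Actg2 at 0.71, with a median of 0.16 and mean levels of 2.08 to 2.91 against 1.97 to 2.63. Of 8 fibroblast genes none passed in limma, 0 at an unadjusted p under 0.05 (median -0.02, largest Col1a1 at 0.44, adjusted p = 0.262), with mean levels of 1.6 to 2.42 against 0.99 to 2.69. Of 9 endothelial genes none passed in limma, 0 at an unadjusted p under 0.05 (median 0.12, largest Tek at 1.01, adjusted p = 0.299), and the same held for 7 red blood cell genes (median 0.04, largest Hbb-b1 at 0.83, adjusted p = 0.54). Of 10 enteric neuron and glia genes 3 were lower, among them Uchl1 at -1.03 and S100b as given above, with a median of -0.46 and mean levels of -2.26 to -1.83 against -1.74 to -1.36. Of 8 adipocyte genes 1 was lower, Plin1 at -0.94, with a median of -1.12 and mean levels of -2.79 to 0.83 against -1.04 to 1.92.

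Genes of exocrine pancreas went in both directions. Of 11 tested genes 2 were higher, among them Cela1 at 0.72, and 2 lower, Clps at -2.85 (SE 0.27, adjusted p = 6.56e-05) and Pnliprp1 at -2.03, with a median of -0.12. The defining pancreatic genes Try4, Try5, Pnlip and Amy2a5 were not well above background on enough arrays to be tested. Of 4 Y-linked genes none passed in limma, 0 at an unadjusted p under 0.05 (median 1.22, largest Eif2s3y at 1.61, adjusted p = 0.66).

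Gene families were also read from symbols without use of the lists. They come from the same arrays and fit, and several, such as Defa, Anxa and Dusp, share members with the lists. Of 222 families with 10 or more tested members, 4 had 40% or more of their members called and 26 had none. The 4 were Defa (16 of 16, all lower), Anxa (7 of 12, all higher), Gng, subunits of G proteins (1 higher and 3 lower of 10), and Tmprss, membrane serine proteases (1 higher and 3 lower of 10, largest Tmprss9 at -3.31). Among the families with smaller shares were the Dusp phosphatases with 6 higher and 2 lower of 22 and the Rgs regulators of G protein signalling with 7 lower of 20. The voltage-gated sodium channels Scn had 4 lower of 12 (largest Scn2b at -1.53). Of 12 Capn proteases 2 were higher and 2 lower, with Capn2 highest at 1.71, and of 13 Eef elongation factors 4 were higher and none lower. Of 16 Ces carboxylesterases 4 were lower and none higher, with Ces1g lowest at -2.03.

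The smallest p-values outside all lists fell on genes of varied function. Tcf23, a helix-loop-helix factor, ranged from 1.78 to 2.93 with a median of 2.40 in BRAFV600E tissue and from -3.16 to -2.0 with a median of -2.46 in control tissue, and rose by 4.93 (SE 0.22, adjusted p = 1.71e-07). Ankrd22 rose by 4.09 (SE 0.28, adjusted p = 1.08e-05), Phlda2, an imprinted gene, by 3.71 (SE 0.27, adjusted p = 1.57e-05) and Tm4sf4, a tetraspanin-like membrane protein, by 3.72. The group also held Car9 and Egln3, both known targets of the hypoxia factor HIF1, which rose by 1.84 and 2.36, Acsl3, a ligase of fatty acids, by 2.21, and Atg9b, of autophagy, by 1.92. The uncharacterised gene 4930461G14Rik had no Cre control array well above background, and against that floor it was at least 10.3-fold higher (adjusted p = 1.57e-05).

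On the lower side Afp, alpha-fetoprotein, ranged from -2.62 to -1.62 with a median of -1.90 against 2.16 to 2.83 with a median of 2.43, a difference of -4.49 (SE 0.19, adjusted p = 1.18e-07). Lect2, a secreted chemotactic protein, fell by 2.01 (SE 0.15, adjusted p = 1.57e-05). Kcna3, a potassium channel, fell by 3.28, Pou5f1 by 3.01 and Pdia2, a disulfide isomerase, by 2.74. The difference of Tcf23 was 5.20 for the BRAFV600E arrays of slide 1 and 4.80 for those of slide 2, and that of Afp was -4.67 and -4.40. Tcf23, Ankrd22, Phlda2, Afp and Lect2 all separated the arrays without overlap.

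Promoter boxes were counted over the window from 250 bases before to 50 after the start, on both strands, and a gene counted when any of its listed promoters held the box. The NF-Y box CCAAT was in 42.2% of the 14949 tested genes with a promoter in the table, in 44.8% of the genes called higher and in 42.5% of those called lower. It was in 6 of 6 mevalonate enzymes, 10 of 10 squalene to cholesterol enzymes and 6 of 7 genes of SREBP control, and in 26 of 31 G2/M genes. The CHR element TTTGAA was in 16.3% of all and in 22 of 31 G2/M genes. The ETS site CCGGAAGT was in 6.68% of all, in 8.31% of genes called higher and in 2.65% of those called lower. The AP-1 site TGANTCA was in 7.46% of all against 8.09% and 8.63%, the E-box CACGTG in 10.1% against 11% and 9.51%, and the sterol regulatory element TCACNCCAC in 1.40% against 1.73% and 1.44%. The sterol element in these letters was in 1 of 6 mevalonate enzymes and in none of the 10 enzymes after squalene. The palindromic HNF1 site was in no tested gene's window. Matches describe the letters in these windows, and lists of genes known to share a box were chosen with that knowledge.

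**Figure D4:**
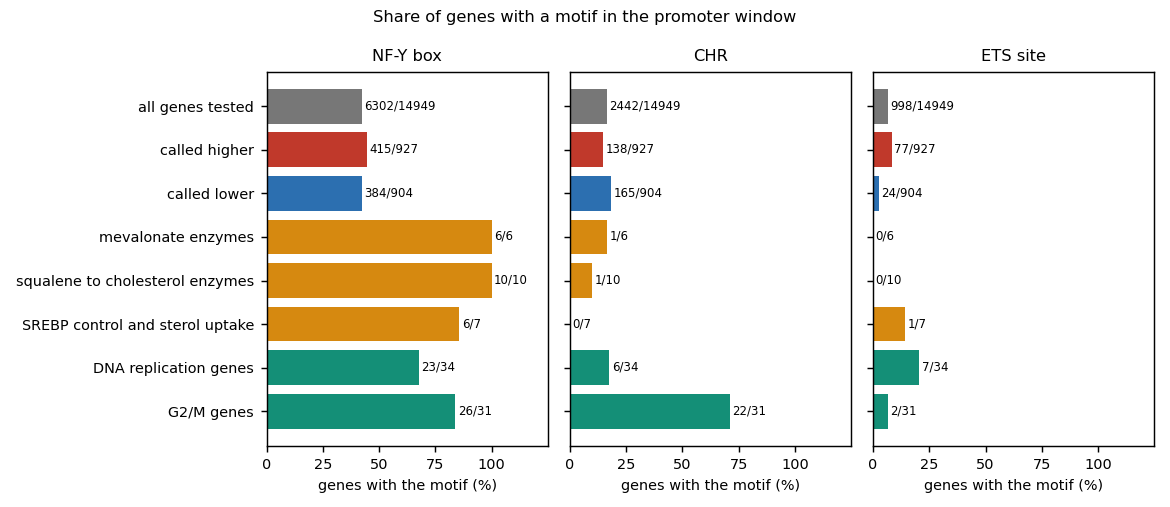
Share of genes (x axis, percent) whose promoter window holds the NF-Y box, the CHR element or the ETS site, for all genes tested, genes called higher or lower and 5 lists (rows), with the number of genes beside each bar. The sterol lists and the G2/M genes stand above all genes tested in the NF-Y panel, the G2/M genes in the CHR panel, and the genes called lower have a smaller share than those called higher in the ETS panel.

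The size of many list differences was unlike between the BRAFV600E arrays of the slides. Among 79 lists of 5 or more genes, the median difference was lower for the BRAFV600E arrays of slide 1 than for those of slide 2 in 60, and the signs differed in 22. The medians of the mevalonate list and the feedback inhibitors moved little, at 0.96 and 1.00 and at 0.67 and 0.72. The mean level of the mevalonate list was lower on BRAFV600E 1 and 2 (2.73 and 3.13) than on BRAFV600E 3 to 6 (3.38 to 3.70). On BRAFV600E 1 it was close to the highest Cre control array, at 2.72. Wide gaps were in the gastric, Paneth, cubilin and peptidase lists given above and in the Reg lectins, at -3.77 and -1.88. In the gastric list the mean level of BRAFV600E 1 (-1.82) lay within the range of BRAFV600E 3 to 6 (-2.32 to -1.44), and BRAFV600E 2 alone stood apart (1.09). The same held for the Reg lectins, with 1.27 on BRAFV600E 1, 1.06 to 1.72 on BRAFV600E 3 to 6 and -1.99 on BRAFV600E 2. These values compare BRAFV600E arrays 1 and 2 and arrays 3 to 6 with the same 6 Cre control arrays, so the slide and the mice on it cannot be told apart.

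**Figure D5:**
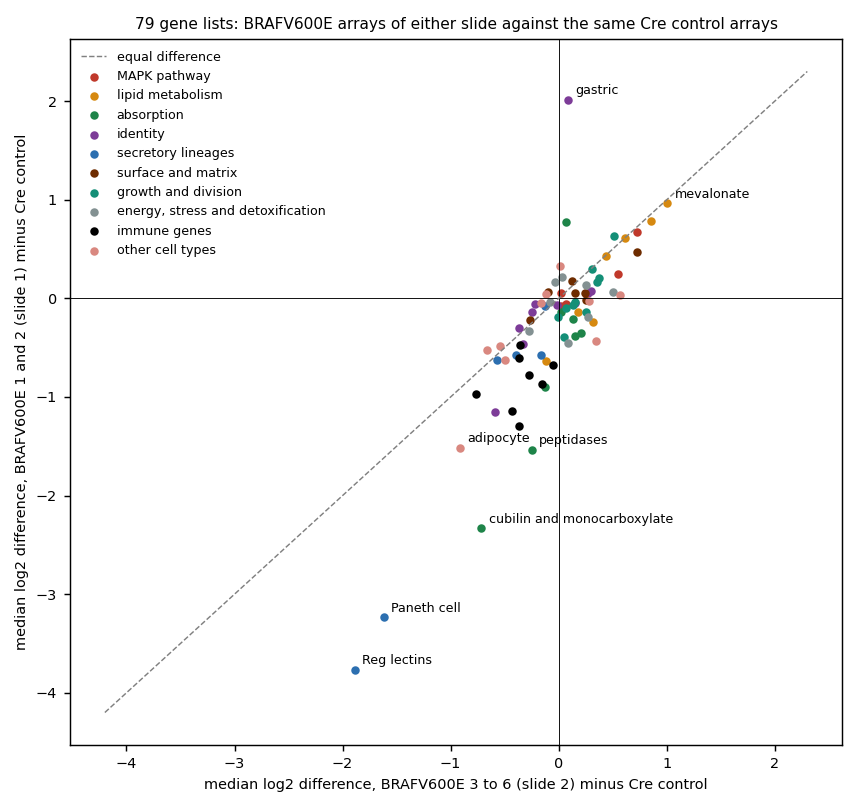
Median difference of each of 79 gene lists for BRAFV600E 1 and 2 on slide 1 (y axis, log2) against that for BRAFV600E 3 to 6 on slide 2 (x axis, log2), both minus the same 6 Cre control arrays, coloured by the kind of list, with a dashed line where the values are equal. The mevalonate list lies on the line, and the Paneth, Reg, cubilin and peptidase lists lie below it.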

How the data were processed

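The authors scanned each array and, per the file headers, extracted it with Agilent Feature Extraction (10.5.1.1 per the submitters' processing notes), which wrote the deposited processed signal, an intensity per spot with background subtracted and spatial trends removed, on a linear scale and not normalized between arrays. Deposited marks of another kind (0 or 1 per spot, well above background or outlying) served as filters, and the authors' series matrix of the same intensity served as an alternative. Of 62976 spots, 59305 were not controls and made up 56605 probes. Outlier spots were left out, log2 was taken, each array's 75th percentile was subtracted and copies of a probe were averaged. RefSeq names (GRCm38.p6) were found for 44334 probes, 34023 of them through their accession, 9993 through the symbol and 318 through a synonym. Each gene was read from its brightest probe, by the mean of the 20 arrays, and tested when well above background on 6 of the 12 arrays.

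BRAFV600E was compared with Cre control by limma 3.58.1 (lmFit and eBayes, R 4.3.3) with no covariates, as the methods name none, two-sided, with Benjamini-Hochberg adjustment over 19040 genes. The script was tested on simulated data. Where no array of a group read a gene well above background, the fold is a bound against the lowest signal that is. Lists are described by counts and medians with no test. Some members that the counts and medians include are not reported here by name. The members and lists were chosen with earlier results of these data known. Named are the called genes of the kinase core and Braf, in each list up to 4 called members a direction with the largest differences (all where 5 or fewer were called, and the largest where none was), 10 genes a direction outside all lists with the smallest p, of which some are given, and the largest member of families described. Another 28 members, chosen after their values were seen, complete counts or illustrate a list. Alternatives were slide, scaling, background correction (normexp, offset 50), dim probes, choice of probe, array weights, Y-linked signal and leaving out each array. The number of arrays, 12, limits the precision. No column of per-sample values went unused.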

Additional observations from a re-analysis of the deposited data

Results flagged for a closer look

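Among the 560 groups of 6 arrays of the genes named here, 57 had an array whose gap to its nearest neighbour took up more of the group's range than Dixon's critical value allows. Chance flags about 1 in 20 groups. BRAFV600E 2 held 22 of the 57 and no other array more than 5, and it lay on the side of the group's difference in most of them. The values in brackets are levels of the outlying array.

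BRAFV600E 2 was the highest of its group for 4930461G14Rik (-0.61), Anxa5 (4.19), Capn2 (3.59), Cybrd1 (6.48), Gsta4 (5.40), Krt7 (3.03), Plaur (0.66), Rrm2 (2.32) and S100a11 (4.43). BRAFV600E 2 was the lowest of its group for Bmp1 (0.98), Dll1 (0.54), Gcg (-2.68), H2-Eb1 (4.20), Hoxb5 (-3.72), Pdia2 (-3.73), Pdzk1 (-0.31), Pfkfb3 (-0.19), Reg3a (-7.19), Reg3b (-0.03), Reg3g (1.95), Scn2b (-3.07) and Xpnpep2 (-0.18). BRAFV600E 1 was the lowest of its group for Cd8a (-3.33), Cyp51 (2.07), Hras (1.92), Mvk (3.14) and S100a16 (2.82). Cre control 4 was the highest of its group for Ces1g (-0.75). Cre control 4 was the lowest of its group for Cd7 (0.87), Dusp6 (3.41), Gfi1b (-2.26) and Lck (0.13). Cre control 5 was the highest of its group for Il7 (-2.54). Cre control 5 was the lowest of its group for Csf1r (3.30), Cybrd1 (-2.58), Fli1 (-2.37) and Pax4 (-4.06). Cre control 6 was the highest of its group for Atg9b (-3.22), Gata4 (2.55) and Kcnq1 (3.26). Cre control 6 was the lowest of its group for Cpt1a (0.81). BRAFV600E 3 was the highest of its group for Cxcl1 (-1.79) and Fzd9 (-2.67). BRAFV600E 3 was the lowest of its group for Hes5 (-6.89). Cre control 1 was the highest of its group for Pdia2 (0.59). Cre control 1 was the lowest of its group for Hbb-b1 (-6.81) and Nrg4 (-1.79). Cre control 3 was the highest of its group for H2-Eb1 (6.08). Cre control 3 was the lowest of its group for Reg3a (4.36) and Slc36a1 (0.72). BRAFV600E 4 was the highest of its group for H2-DMa (0.01). BRAFV600E 4 was the lowest of its group for Tpsb2 (-1.53). BRAFV600E 5 was the lowest of its group for Ddx21 (0.79) and Hspa5 (4.30). BRAFV600E 6 was the lowest of its group for Gfi1b (-3.16) and Phlda2 (-2.09). Cre control 2 was the highest of its group for Clps (5.06).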

How the results depend on the processing

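Of 2369 genes called (1177 higher, 1192 lower), 1535 genes were called with the slide as a block, 464 of them higher. Within slide 1 alone 734 were called (193 higher, 541 lower), and with the BRAFV600E arrays of slide 2 alone against all Cre control arrays 1468 (648 lower). Without the 3 Cre control arrays of low spike-in slope the count was 29 within slide 1 (5 higher, 24 lower) and 426 with all BRAFV600E arrays kept (205 higher, 221 lower), the last setting chosen after seeing the data. The fits on part of the arrays have fewer samples, which tends to lower the count, although the count rose to 2858 without Cre control 4. Testing every probe on its own gave 3591 calls (1972 higher), array weights 1799 higher, and median scaling 613 lower. Leaving out 1 array gave 1442 to 2858 calls, 710 to 1355 higher and 732 to 1534 lower. Losses above 1.5 times came without Cre control 2 (1526 called, 755 higher, 771 lower) and Cre control 3 (1442, 710 and 732), and in 1 direction without Cre control 5 (741 higher), BRAFV600E 4 (782 higher) and BRAFV600E 2 (790 lower). The cause of these changes in count was not tested.

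Of the 268 named genes that passed, 184 passed in each of the 12 fits without 1 array, 156 with the slide as a block and 206 under all 4 other scalings. Signs changed for 9 named genes. With the mean of a gene's probes Acss2 came to -0.15, Des to -0.42, Iars2 to -0.25 and Pgk1 to -0.18. Cybrd1 came to -0.19 with the BRAFV600E arrays of slide 2 alone, Eif2s3y to -0.064 with Y-linked signal as a covariate and Elk1 to 0.0039 with quantile normalization. Against the Cre control arrays of higher spike-in slope Dnmt3b came to 0.17 and Tek to -0.30. Of 82 list medians, 32 stayed within the spread between arrays in every alternative, and 26 moved beyond it with the slide as a block. No paired analysis was possible because the labels give no replicate numbers that tie a BRAFV600E mouse to a Cre control mouse. Signal over background limits dim genes, whose differences carry larger errors. The median control level was -2.13 in the Hox list, -2.01 in interleukins and receptors and -1.79 in Wnt ligands, receptors and modulators. All 3 lists had negative median differences. So did the secretory transcription factors, enteric neuron and glia, tuft and chemokine lists, with control levels of -1.71, -1.41, -1.39 and -1.37. The endothelial genes, at -1.99, had a median difference of 0.12. The gastric, feedback inhibitor and Y-linked lists, at -3.59, -1.41 and -4.12, had 0.69, 0.72 and 1.22. The part of low signal in these medians was not tested.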

Other observations

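Further symbol families held calls in a single direction, of which some are given here. Of 14 tested Psmd genes, subunits of the proteasome cap, 3 were higher and none lower, and 13 of the 14 differences were positive. Of 11 Coq genes, which make coenzyme Q from a product of the mevalonate pathway, 3 were higher and none lower. Of 12 Parp genes 3 were higher and none lower, but 6 differences were positive and 6 negative. Of 12 Tlr genes, the Toll-like receptors, 3 were lower and none higher, and 11 differences were negative. The 11 Slc5 sodium-coupled carriers, which include Slc5a12, had 3 lower and none higher. With the slide as a block no Psmd or Parp call remained, while 1 of 3 Coq, 2 of 3 Tlr and all 3 Slc5 calls did.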
